A study of Triticum aestivum with 15 samples.

Results

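The comparison described here sets the upper leaves of bread wheat (Triticum aestivum) after 11 days without iron, taken from the third to the fifth leaf, against the third leaf after 7 days without iron. It rests on 6 of the 15 libraries of the study, 3 per group, which were chosen by the leaf and the day that their labels give. All plants were wild type of cultivar Fielder, a spring wheat that is often used for transformation. They grew in hydroponic boxes for 12 days with 50 µM iron (NaFe3+EDTA) and then with 0 µM iron, so both groups had lost their iron supply. Each group had replicates 1, 2 and 3, and libraries with the same number also share a number in their library names. The labels do not say whether that number marks a plant, a box or a batch, so p-values measure only the spread between these samples. The other 9 libraries were the first leaf on days 0 and 1 and the roots on day 11. No iron-fed leaf of day 7 or day 11 entered the comparison. The age of the plants, the position of the leaf and the days spent without iron therefore differed together between the groups, and their effects cannot be told apart.

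Iron is carried by the cytochromes, the iron-sulfur proteins of photosystem I and ferredoxin, and it is needed to make chlorophyll. Leaf iron moves poorly out of older leaves, so young leaves are known to yellow first when the supply ends. Wheat, as a grass, takes up iron by releasing phytosiderophores from its roots, which bind ferric iron and are taken back up as a complex. The gene identifiers of the deposited table carry a chromosome and a confidence class but no gene name, and 0 of the 269207 identifiers matched the reference table of 155467 wheat genes. The genes of these pathways, and the marker genes of leaf and root, could therefore not be singled out. The changes are described by where the genes lie, how abundant they are, and what level they have in first leaves and roots.

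The 6 libraries held 19865687 to 23343568 counts, with 19865687 to 21386369 in the day 11 leaves and 20345313 to 23343568 in the day 7 leaves. Across all tested genes, the day 11 libraries resembled each other more than the day 7 libraries did. Pearson's r of log2 CPM (counts for every 1000000 of the library, scaled by the trimmed mean of M values, TMM) across genes was 0.955 to 0.966 among the day 11 leaves, against 0.866 to 0.941 among the day 7 leaves. Genes are not independent replicates, so these r values are descriptions. The day 7 library of replicate 3 stood apart. Its Pearson's r with the first leaves was the highest of the 6 libraries. The counts of calls, and those of the gene classes that shift most without it, are also given without it.

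On day 11 the leaves were closer to roots, and less close to the first leaves of day 0, than on day 7. The mean r values given here were computed separately from the r values above and are not comparable with them. The mean r with the 3 root libraries was 0.641, 0.628 and 0.627 in the day 11 leaves of replicates 1, 2 and 3, against 0.535, 0.526 and 0.531 in the day 7 leaves. The groups did not overlap. The mean r with the first leaves of day 0 was 0.759, 0.772 and 0.770 in day 11 leaves and 0.794, 0.827 and 0.897 in day 7 leaves, again without overlap. The mean r with the first leaves of day 1 was 0.755, 0.773 and 0.775 in day 11 leaves and 0.766, 0.802 and 0.898 in day 7 leaves, and these ranges overlapped. Day 11 leaves and roots share the day of harvest, and its part in this likeness was not tested.

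Of 62841 genes tested by edgeR's quasi-likelihood test, 13767 (21.9%) had a Benjamini-Hochberg adjusted p under 0.05. The called genes comprised 5490 higher (8.74% of those tested) and 8277 lower (13.2%) on day 11. The median change was a log2 fold change of 1.04 among the higher genes (2.06-fold) and -1.20 among the lower genes (2.30-fold lower). Both medians were the same to 2 decimals when genes with 0 counts in one of the groups were set to the limit that 3 counts allow. Most of those genes lay far beyond the medians either way, so the medians could hardly have moved. At least 2-fold changes were called for 2879 higher genes (4.58%) and 5130 lower genes (8.16%).

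The excess of decreases held only under some scalings and fits. With library totals in place of TMM factors, 10060 genes were higher and 5124 lower, so the share of higher genes among the calls was 66.3%, against 39.9% with TMM. With the fit repeated on the 6 libraries alone, 7661 were higher and 6980 lower (52.3% higher). That fit had its own TMM factors, filter (59686 genes tested) and estimate of the spread, so its shift is not that of scaling alone. The median log2 fold change of all genes was -0.069 in the main fit, 0.015 with the 6 libraries and 0.192 with library totals. The TMM factors were 1.24 to 1.28 in day 11 leaves, against 1.01 to 1.07 in day 7 leaves. No gene changed sides between these fits: 0 genes called lower became called higher under either alternative, and 0 the reverse. Of the higher genes 5213 (95.0%) were called higher in all 3 fits, and of the lower genes 4588 (55.4%) were called lower in all 3. Which direction prevails over the genome thus depends on the scaling, as the fit with library totals shows. The order of the medians of the 7 classes of root level described below was the same in all 3 fits.

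**Figure D1:**
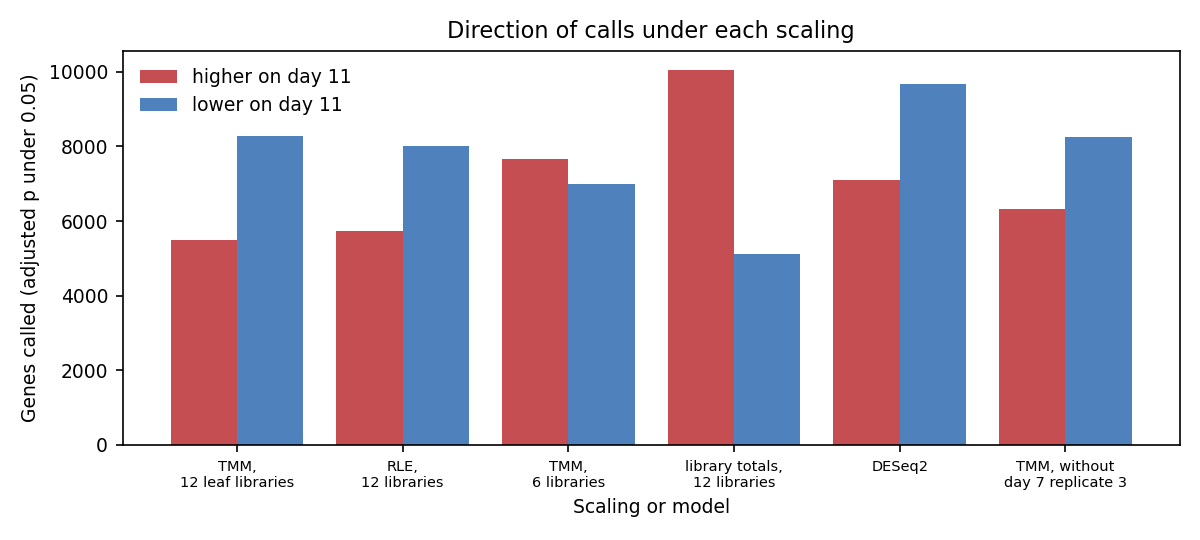
Bars give the number of genes called higher (red) and lower (blue) in upper leaves of day 11 than in the third leaf of day 7 at an adjusted p under 0.05, for 6 scalings, models or sets of libraries on the x axis. Lower genes outnumber higher genes except with TMM on 6 libraries (7661 higher, 6980 lower) and with library totals (10060 higher, 5124 lower).

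The number of calls also depended on the libraries. It fell to 5149 without replicate 1 of every group (1647 higher, 3502 lower) and to 3357 without replicate 2 (984 higher, 2373 lower). At least 2-fold changes then numbered 1323 higher and 3140 lower without replicate 1, and 836 higher and 2260 lower without replicate 2. Leaving out the day 11 library of replicate 1, 2 or 3 gave 8837, 8681 or 9017 calls, of which 3291, 3177 or 3414 were higher, and 5504 were lower without that of replicate 2. Without the day 7 library of replicate 2, 3378 genes were higher. Without the day 7 library of replicate 3, the library that stood apart, calls were more numerous: 6322 higher and 8247 lower genes, with 11539 of these 14569 genes among the original calls.

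The contrast was also read without a model, as the log2 ratio of day 11 to day 7 between libraries of the same replicate number, over the 49143 genes with a mean of at least 1 CPM in leaves, with 0.5 CPM added to each value. The genes at least 2-fold higher made up 7.03%, 7.43% and 6.77% for replicates 1, 2 and 3, and those at least 2-fold lower 13.8%, 12.7% and 11.5%. All 3 ratios thus had more decreases than increases of this size on the TMM scale. Across genes the ratios of replicates 1 and 2 had a Pearson's r of 0.824, against 0.595 for replicates 1 and 3 and 0.642 for replicates 2 and 3. In all 3 ratios 1365 genes were at least 2-fold higher and 2428 at least 2-fold lower, while 657 genes were 2-fold higher in one ratio and 2-fold lower in another. The spread between libraries was smaller on day 11: the median SD of log2 CPM was 0.16 in day 11 leaves and 0.26 in day 7 leaves.

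The libraries of the groups did not overlap for 13705 genes above (21.8%) and 14554 below (23.2%) on day 11, in TMM-scaled CPM. Among the called genes 5463 of the 5490 higher and 8043 of the 8277 lower were separated in this way. Scaled by library totals instead, 20926 genes were separated above and 8931 below.

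Genes that are abundant in leaves were called lower more often than other genes, although they are few: those at 100 CPM or more in first leaves held 880 (10.6%) of the lower calls, and those from 3 to 100 CPM held 6246 (75.5%). The abundance of a gene was taken from the 6 first-leaf libraries, whose levels do not enter the contrast. Of the 152 genes at 1000 CPM or more in first leaves, 91 (59.9%) were called lower on day 11 and 0 higher, against 13.2% and 8.74% of all genes tested. Of these 152 genes, 79 were lower and 3 higher without the day 7 library of replicate 3. Of the 1666 genes at 100 CPM or more, 880 (52.8%) were lower and 68 (4.08%) higher, with a median log2 fold change of -0.73. Their median was -0.46 with library totals and -0.66 with the 6 libraries, so it stayed negative under each scaling. When the same library was left out, 775 (46.5%) were lower and 109 (6.54%) higher, with a median of -0.55.

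Genes of lower abundance were called lower less often. From 3 to 10 CPM in first leaves, 1764 of 16682 genes (10.6%) were higher and 2070 (12.4%) lower, and this split turned to 3528 higher and 1184 lower with library totals and to 2317 and 1733 with the 6 libraries. Under 0.3 CPM, 594 of 5606 (10.6%) were higher and 60 (1.07%) lower. The lower genes of this class were over 4 times as many without the day 7 library of replicate 3, with 541 higher and 254 (4.53%) lower of 5605. A gene that is scarce in first leaves reaches the test mostly by its counts in leaves of day 7 or day 11. This class was thus partly chosen by the levels that the contrast compares. Precision also differs with abundance: the median SE of the log2 fold change was 1.17 under 0.3 CPM, 0.23 from 3 to 10 CPM and 0.21 from 100 to 300 CPM. A like order appeared when genes were classed by their mean over all 12 leaf libraries, where 56 of 97 genes at 1000 CPM or more were lower and 0 higher. In that class 48 genes were lower and 3 higher without the same library.

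**Figure D2:**
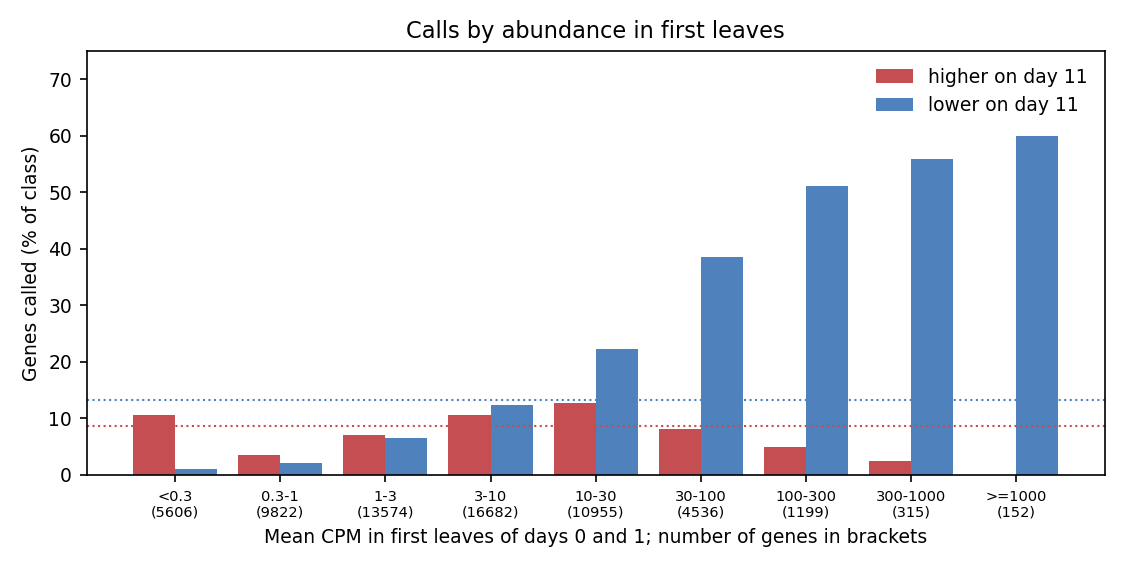
Bars give the percentage of genes called higher (red) and lower (blue) in upper leaves of day 11 than in the third leaf of day 7, by the mean CPM of the gene in first leaves of days 0 and 1 (x axis, number of genes in brackets). Dotted lines mark 8.74% higher and 13.2% lower among all genes tested. The share of lower genes is 1.07% in the class under 0.3 CPM and 59.9% at 1000 CPM or more. These shares are 4.53% and 52.0% without the day 7 library of replicate 3, a setting that is not drawn.

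The most abundant transcripts took a smaller part of the library on day 11. The 1000 most abundant genes of each library held 33.1%, 34.5% and 35.6% of the counts in day 11 leaves of replicates 1, 2 and 3, against 36.5%, 37.9% and 43.6% in day 7 leaves. All 3 day 11 libraries were lower than all 3 day 7 libraries (exact two-sided permutation test, p = 0.1, the smallest that 3 against 3 libraries allow). The day 7 library of replicate 3 was the highest, and the first leaves lay between 45.0% and 52.5%. For the 100 most abundant genes the shares were 12.3%, 13.1% and 14.2% in day 11 leaves and 13.2%, 13.8% and 18.7% in day 7 leaves, and the groups overlapped (exact permutation p = 0.4). Of the 100 genes that were most abundant in first leaves, 62 were called lower and 0 higher on day 11. Of the 100 tested genes that were most abundant in roots, 58 were called higher and 7 lower. This root list holds only genes that passed the filter on leaf counts, so root genes that are off in leaves are missing. No minimum in first leaves was set for it. A root gene scarce in first leaves could thus enter only through its counts in leaves of day 7 or day 11. When the day 7 library of replicate 3 was left out, 54 of the first-leaf list were lower and 3 higher, and 56 of the root list were higher and 9 lower.

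Genes with high root levels were called higher more often, and genes with low root levels lower more often, than genes with like levels in both tissues. The ratio did not separate the calls, since the genes within 2-fold held 2458 (44.8%) of all higher and 2803 (33.9%) of all lower calls. This ratio came from the 3 root and 6 first-leaf libraries, with 0.5 CPM added to each mean. Those roots had 11 days without iron and those first leaves 0 or 1 day. Organ, age and time without iron thus differ together in the ratio, and their parts were not tested. Only the 47413 genes at 1 CPM or more in first leaves were classed, so that a gene did not have to be high on day 11 to be tested. Of the 204 genes at least 16-fold higher in roots than in first leaves, 108 (52.9%) were called higher in day 11 leaves and 7 (3.43%) lower, with a median log2 fold change of 1.28. Of the 3684 genes at least 16-fold lower in roots, 1913 (51.9%) were called lower and 65 (1.76%) higher, with a median of -0.83. The 26292 genes within 2-fold had 9.35% higher and 10.7% lower genes, against 9.61% and 16.9% of all 47413 genes classed. Their share of higher genes was thus near that of the genes classed, and their share of lower genes was smaller. Their split turned to 5337 higher and 1177 lower genes with library totals and to 3375 and 2298 with the 6 libraries, whereas the outermost classes kept their direction.

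The classes in between followed the same order. Genes 2- to 4-fold and 4- to 16-fold higher in roots were called higher in 21.4% and 29.0% of cases and lower in 4.68% and 4.38%. Genes 2- to 4-fold and 4- to 16-fold lower in roots were called higher in 5.39% and 4.50% and lower in 21.3% and 31.8%. Relative to the median of all genes, the medians of the outermost classes were 1.35 and -0.76 with TMM, 1.35 and -0.75 with library totals, and 1.35 and -0.76 with the 6 libraries. The day 7 library of replicate 3 is nearest to the first leaves. Without it, 105 of the 204 genes at least 16-fold higher in roots were called higher. Of the 3684 genes at least 16-fold lower in roots, 1621 were then called lower and 211 higher. The classes 2- to 4-fold and 4- to 16-fold lower in roots then had 458 and 453 higher genes, against 302 and 259 with all libraries. In these bulk samples fewer cells of a type and less RNA per cell cannot be told apart.

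**Figure D3:**
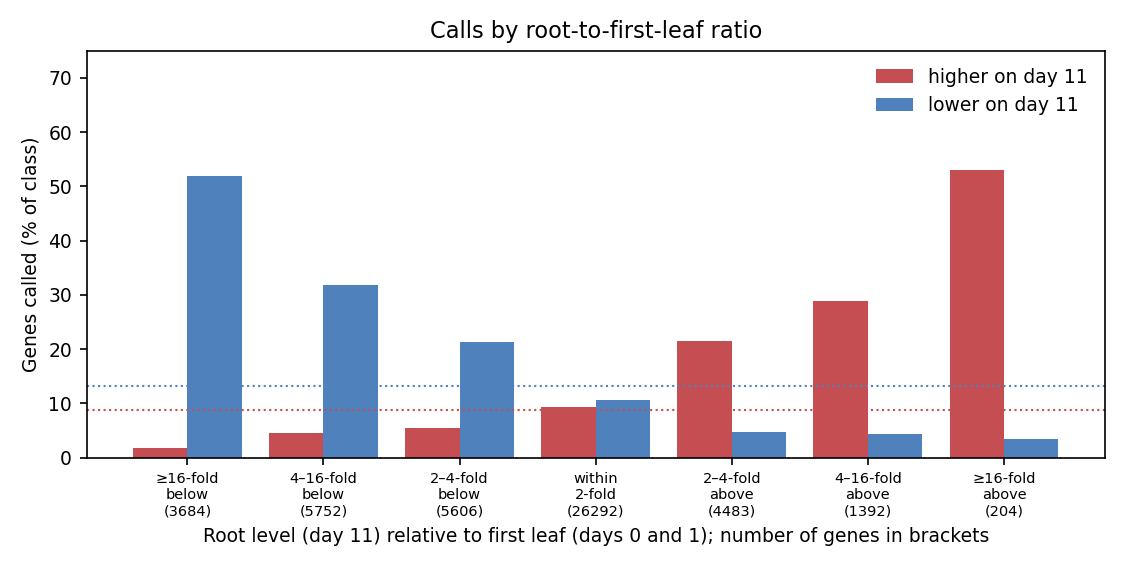
Bars give the percentage of genes called higher (red) and lower (blue) in upper leaves of day 11 than in the third leaf of day 7, by the level of the gene in day 11 roots relative to first leaves (x axis, number of genes in brackets), for genes at 1 CPM or more in first leaves. Dotted lines mark 8.74% higher and 13.2% lower among all genes tested. Among the 47413 genes classed here these shares are 9.61% higher and 16.9% lower, which are not drawn. Lower calls reach 51.9% in the class with the lowest root levels, and higher calls 52.9% in the class with the highest.

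Each of the 3 same-numbered ratios had this order. Over the genes at least 16-fold higher in roots, the median log2 ratio of day 11 to day 7 was 1.18, 1.45 and 0.95 for replicates 1, 2 and 3 (mean 1.19 ± 0.25, SD, n = 3). Over those at least 16-fold lower in roots it was -0.56, -0.58 and -1.11 (mean -0.75 ± 0.32, SD, n = 3), and replicate 3 had the largest decrease. For genes at 1000 CPM or more in first leaves the medians were -0.75, -0.71 and -1.26, again with replicate 3 apart from the other two. For genes within 2-fold between roots and first leaves they were -0.04, -0.02 and 0.04.

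**Figure D4:**
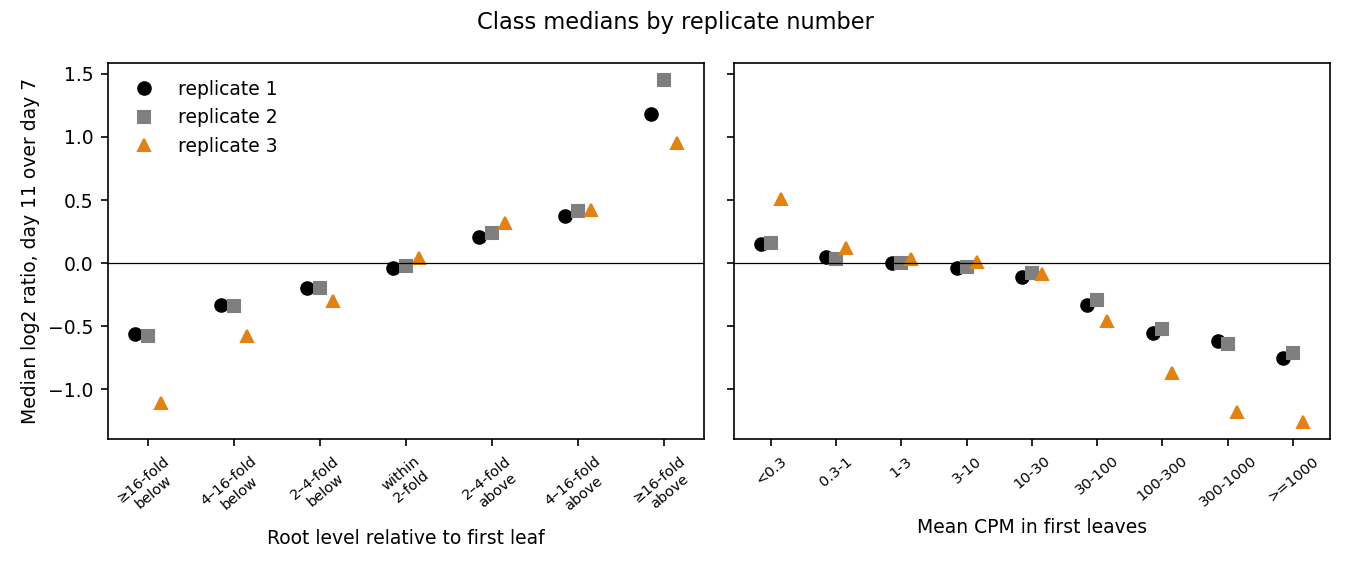
Each point is the median log2 ratio of day 11 to day 7 leaf over the genes of a class, between libraries of 1 replicate number (circle, square and triangle for replicates 1, 2 and 3), by root level relative to first leaf for genes at 1 CPM or more in first leaves (left) and by mean CPM in first leaves for all genes tested (right). In all 3 the medians run from negative to positive with increasing root level, from -1.11 to -0.56 in the lowest class and from 0.95 to 1.45 in the highest.

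Abundance and root level were related, so the root classes were also read within a band of abundance. Among genes at 3 to 30 CPM in first leaves, 55 of 87 genes at least 16-fold higher in roots were called higher (63.2%) and 3 lower, with a median log2 fold change of 1.58. In the same band 603 of 1315 genes at least 16-fold lower in roots were called lower (45.9%) and 35 higher, with a median of -0.77. Among genes at 100 CPM or more, the 239 within 2-fold of their first-leaf level in roots had 94 lower (39.3%) and 21 higher, with a median of -0.41. The 1037 at least 16-fold lower in roots had 596 lower (57.5%) and 14 higher, with a median of -0.88. At 3 to 30 CPM the medians of the 7 root classes kept their order. At 100 CPM or more they did not: genes 2- to 4-fold lower in roots had 69 of 118 lower (58.5%) and a median of -0.70, and genes 4- to 16-fold lower had 114 of 230 lower (49.6%) and a median of -0.68. Without the day 7 library of replicate 3 the higher genes among those at least 16-fold lower in roots numbered 42 at 100 CPM or more and 87 at 3 to 30 CPM, and the lower genes 513 and 504.

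The called genes can also be described by where they stood outside the contrast. The higher genes had a median of 5.34 CPM in first leaves of day 0, 5.90 CPM in those of day 1 and 10.3 CPM in roots (CPM scaled over all 15 libraries). The lower genes had 15.8 CPM on day 0, 14.2 CPM on day 1 and 2.75 CPM in roots. All genes tested had 3.57, 3.45 and 2.76 CPM in the same groups. Together the higher genes held 20.1% to 20.5% of the summed CPM of all genes tested in day 11 leaves, against 6.84% to 7.35% in day 7 leaves. In roots they held 27.7% to 28.0% of that sum. Root transcripts that failed the filter on leaf counts are missing from the root sum, so the root share is not one of all root transcripts. For the lower genes these shares were 16.4% to 17.4% in day 11 leaves, against 30.5% to 36.8% in day 7 leaves, while first leaves held 43.2% to 44.6%. These genes were chosen by the contrast, so the values of days 11 and 7 are a description only.

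Genes with no counts in one of the groups formed a small part of the calls. On day 7, 403 of the higher genes (0.641% of those tested) had 0 counts in all 3 libraries, which allows up to 0.0439 CPM (3 counts over the group). On day 11, 306 of the lower genes (0.487%) had 0 counts, which allows up to 0.0388 CPM. These limits cover counting error only. The genes that appeared on day 11 had a median level of 1.14 CPM there, and 68 of them reached 5 CPM. Those that were lost had a median of 0.626 CPM on day 7, and 3 of them had reached 5 CPM.

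The levels of both lists in the other tissues are descriptions, because the filter shaped the lists. Of the 403 genes that appeared, 176 had 0 counts in all 6 first-leaf libraries and 104 had 0 counts in all roots. Roots held 1 CPM or more of 167 of the 403, and first leaves of 28. Those 176 genes reached the test only through day 11 leaves. Of the 306 genes that were lost, 10 had 0 counts in all first leaves and 142 had 0 counts in all roots. First leaves held 1 CPM or more of 192 of the 306, and roots of 71. Those 10 genes reached the test only through day 7 leaves. Of all 62841 genes tested, 47413 had 1 CPM or more in first leaves. The like numbers for roots and for 0 counts were not computed. Without replicate 1 the genes that appeared numbered 135, without replicate 2 they numbered 99, and without the day 7 library of replicate 3 they numbered 605. They numbered 210 without the day 11 library of replicate 1 and 204 without that of replicate 2. In the fit of the 6 libraries alone, 139 genes were lost.

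By rule, 4 genes were named: the 2 with the largest increase and the 2 with the largest decrease in mean CPM, among called genes with the same direction in all 3 same-numbered ratios. TraesCS6D02G378000, a high-confidence model on chromosome 6D, had 1615, 1677 and 2353 CPM in the day 11 leaves of replicates 1, 2 and 3, against 587, 614 and 738 CPM in the day 7 leaves. Each day 11 library was above each day 7 library, and replicate 3 was highest on both days. The day 11 leaves averaged 1882 CPM ± 409 and the day 7 leaves 646 CPM ± 80.2 (SD, n = 3 each; edgeR log2 fold change 1.54, SE 0.22, adjusted p = 0.00086). The adjusted p was 0.059 without replicate 2 and ran from 2.9e-12 to 0.059 over 17 alternatives.

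TraesCS6B02G432300 on chromosome 6B had 1461, 1432 and 2244 CPM in day 11 leaves, against 516, 491 and 664 CPM in day 7 leaves. Its groups did not overlap either, and replicate 3 was again highest. The log2 fold change was 1.62 (SE 0.22, edgeR adjusted p = 0.00067), with adjusted p from 5.1e-14 to 0.044 over the alternatives. Both genes belong to the 14 higher genes among the 1037 abundant genes with the lowest root levels, a class in which 596 fell. Roots held 1.07 CPM ± 0.46 of TraesCS6D02G378000 and 0.587 CPM ± 0.29 of TraesCS6B02G432300, and first leaves of day 0 held 197 CPM ± 31.0 and 245 CPM ± 27.9 (SD, n = 3, scaled over all 15 libraries). First leaves of day 1 held 336 CPM ± 69.3 and 524 CPM ± 78.8, and day 7 leaves 694 CPM ± 86.2 and 598 CPM ± 100 on the same scale. For TraesCS6B02G432300 the libraries of day 1 and day 7 overlapped.

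TraesCS4B02G140300 on chromosome 4B had 2262, 2838 and 2383 CPM in day 11 leaves, against 4397, 5036 and 7155 CPM in day 7 leaves. The groups did not overlap, and the day 7 library of replicate 3 was the highest of the 6. The day 11 leaves averaged 2494 CPM ± 304 and the day 7 leaves 5529 CPM ± 1444 (SD, n = 3 each; edgeR log2 fold change -1.15, SE 0.23, adjusted p = 0.0052). The call ended without replicate 1 (0.053), without replicate 2 (0.12) and with the 6 libraries alone (0.051).

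TraesCS4D02G135000 on chromosome 4D had 2702, 3559 and 3046 CPM in day 11 leaves, against 4198, 4843 and 7668 CPM in day 7 leaves. The libraries were separated, but the day 7 library of replicate 3 carried much of the difference. The log2 fold change was -0.84 (SE 0.25, edgeR adjusted p = 0.036), and it was -0.51 with an adjusted p = 0.081 without that library. Over 17 alternatives 6 kept the call, with adjusted p from 0.0016 to 0.21. First leaves of day 0 held 10469 CPM ± 1373 of TraesCS4B02G140300 and 9892 CPM ± 1509 of TraesCS4D02G135000, and roots held 0.0608 CPM ± 0.0599 and 0.0599 CPM ± 0.104 (SD, n = 3, scaled over all 15 libraries). The sources used here do not say how the authors counted reads that match several gene copies, so reads may be split between near-identical copies of any of these genes.

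**Figure D5:**
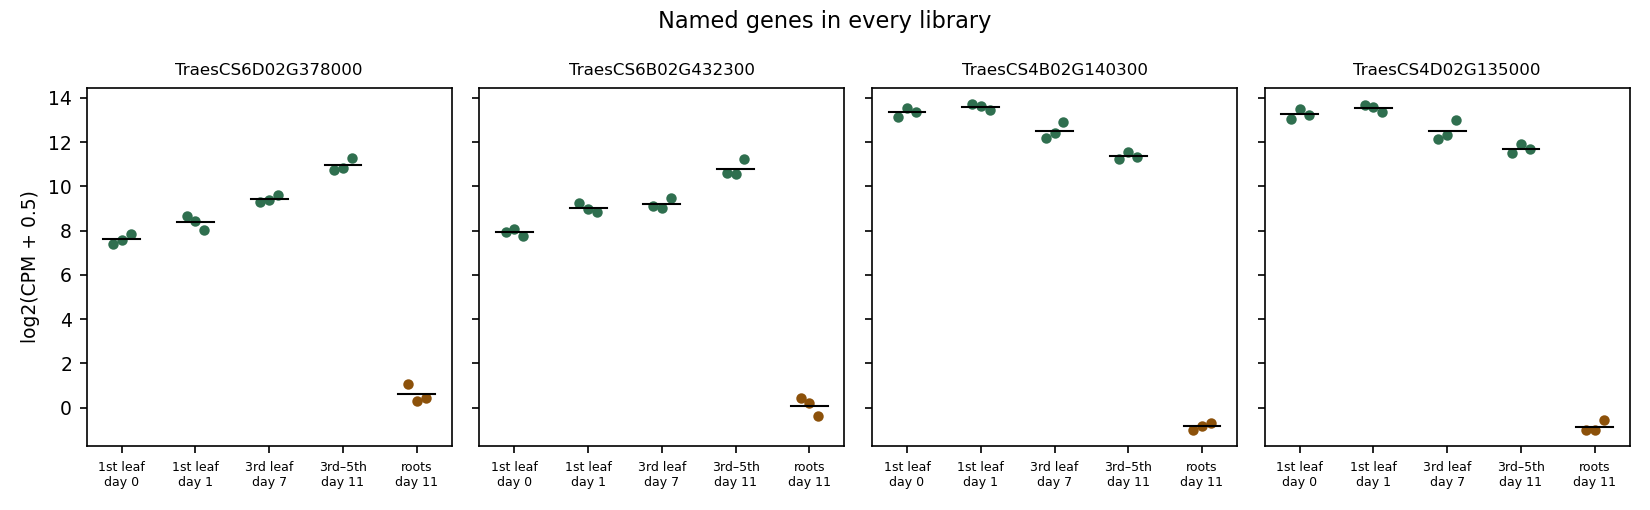
Each panel shows 1 named gene, with log2(CPM + 0.5) on the y axis and the 5 groups on the x axis, in the order of harvest with roots last. Points are libraries (replicates 1, 2 and 3 from left to right, leaves green, roots brown) and lines are means over the 3 libraries. The left pair is higher on day 11 than on day 7 and the right pair lower, and all 4 are near 0 CPM in roots.

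The calls were spread over the genome, as counted with TMM; the split between directions follows the scaling here too. Over the 21 chromosomes the share of genes called higher ran from 7.70% on 6B to 9.43% on 4D, and the share called lower from 11.8% on 5D to 14.5% on 6A. Subgenomes A, B and D had 8.74%, 8.51% and 9.04% higher and 13.3%, 13.0% and 13.2% lower genes. Their shares of the counts differed slightly. Subgenome B held 32.1% ± 0.029 of the counts in day 11 leaves and 31.5% ± 0.27 in day 7 leaves, and subgenome D 34.3% ± 0.12 and 34.7% ± 0.23 (SD, n = 3 each). The libraries of the groups did not overlap for either (exact two-sided permutation test, p = 0.1 each), and they overlapped for subgenome A (exact permutation p = 0.3), among 7 library measures tested in this way, with no adjustment. When the high-confidence genes of each chromosome were cut into 10 bins by identifier order, the share of higher genes ran from 8.36% to 10.7% and that of lower genes from 12.9% to 15.8%. High-confidence models had 9.23% higher and 14.5% lower genes, and low-confidence models 6.52% higher and 7.25% lower. The median log2 fold change was -0.11 for high-confidence and 0.12 for low-confidence models with TMM, and 0.16 and 0.39 with library totals. The low-confidence calls turned to 919 higher and 718 lower without the day 7 library of replicate 3. Low-confidence models held 5.07%, 4.99% and 5.08% of the counts in day 11 leaves, against 4.61%, 4.65% and 4.37% in day 7 leaves (exact two-sided permutation test, p = 0.1, the smallest possible). The groups did not overlap.

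Neighbouring genes were called together somewhat more often than genes overall. Of the higher high-confidence genes whose next identifier was also tested, 367 of 2732 (13.4%) had a higher neighbour, against 9.20% of all such neighbours. Of the lower ones 817 of 4276 (19.1%) had a lower neighbour, against 14.8%. Runs of 4 or more adjacent genes called in the same direction numbered 4 for increases, on chromosomes 3A, 3D and 6D, and 9 for decreases, of which the longest held 5 genes on chromosome 3A. The runs held 16 of the 5490 higher and 37 of the 8277 lower genes. How many runs would arise without clustering was not computed. Neighbouring copies can share reads, and their part in these pairs was not tested.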

How the data were processed

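Messenger RNA was measured in 12 leaf and 3 root libraries, and the titles and descriptions of the samples gave the groups and replicate numbers. The deposited file is 1 table of whole-number gene counts by the authors, without normalization, for high- and low-confidence models. HISAT2 2.2.1, featureCounts 2.0.3, StringTie 2.2.3, Trim Galore 0.6.7, MultiQC 1.11 and FastQC 0.74 are named, per the submitters' processing notes. For strand, multi-mapped reads and genome build, settings were not given in the sources used here. Of the 269207 identifiers, 159897 had 0 counts in every library.

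The test was edgeR's quasi-likelihood F test (version 4.0.16, R 4.3.3; TMM, filterByExpr by group, Benjamini-Hochberg over 62841 genes). The 12 leaf libraries were fitted together, with the group as the only term, so that 4 groups share 1 estimate of the spread (common biological coefficient of variation 0.343). The SE is the log2 fold change divided by the square root of F. The scripts were tested on simulated data. Alternatives were DESeq2 1.42.0, RLE factors, other filters, the 6 libraries alone, high-confidence models only, the replicate number as a term, and leaving out each replicate and library. Fits with library totals, first-leaf abundance classes and root classes were added after seeing the data; non-overlapping genes by library totals were planned. The members and lists were chosen with earlier results of these data known. The genes named are the 2 largest increases and 2 largest decreases in mean CPM among called genes with 1 direction in all 3 same-numbered ratios.

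The labels do not say what libraries of the same replicate number share, so ratios between them are descriptions. Replicate libraries differed by more than sampling noise (chi-square per degree of freedom 8.19 to 70.8), so each counts as 1 replicate.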

Additional observations from a re-analysis of the deposited data

How the results depend on the processing

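Over 17 alternatives the called genes numbered from 3357 to 16776. Leaving out 1 replicate number or 1 library gave 3357 to 14569 calls, with 984 to 6322 higher and 2373 to 8247 lower genes. At least 2-fold changes then ranged from 836 to 3687 higher and from 2260 to 5373 lower. The share of higher genes among the calls ranged from 29.3% to 45.4%. Genes at 0 on day 7 ranged from 99 to 605 and those at 0 on day 11 from 204 to 351.

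With library totals 10060 genes were higher, 5124 lower and 5083 at least 2-fold higher, and 66.3% of calls were higher. The excess of decreases also turned with the 6 libraries alone (52.3% higher), but not for changes of at least 2-fold (4141 higher, 4523 lower), and this fit gave 139 genes at 0 on day 11. Genes whose libraries did not overlap numbered 20926 above and 8931 below with library totals, and the root 2-fold or more above class then had 2241 higher genes, against 1472 with TMM. With at least 1 CPM in 3 libraries, genes at 0 numbered 209 on day 7 and 193 on day 11. The replicate number does not establish a pairing: deviations of same-numbered day 11 and day 7 libraries correlated at 0.243, -0.0064 and 0.179 across genes, and not every library correlated best with its own number. As a replicate block it gave 11928 calls, of which 11568 were among the main ones, with 220 genes at 0 on day 7 and 225 at 0 on day 11. It ended the call of none of the 4 named genes. DESeq2 called 16776 genes, of which 13642 were shared.

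No named gene changed direction in any alternative. Under 0.3 CPM in first leaves the median SE was 1.17 on the log2 scale, against 0.23 from 3 to 10 CPM, and the part of counting error in it was not tested.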
